A study of Mus musculus with 13 samples.

Results

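The activin, TGF-beta and BMP receptor genes were followed through 12 chromatin immunoprecipitation and sequencing (ChIP-seq) libraries of LβT2 cells. The 10 genes encode the type I receptors Acvr1, Acvr1b, Acvr1c, Tgfbr1 and Bmpr1a, the type II receptors Acvr2a, Acvr2b, Tgfbr2 and Bmpr2, and the co-receptor Tgfbr3. A peak belonged to a receptor gene when the deposited annotation tables named that gene for it at a distance of at most 100 kb from the annotated start. This rule found 251 of the 538751 peaks of the 12 lists, at 8 of the 10 genes. The farthest accepted peak lay 46.4 kb from the start of Tgfbr1. The nearest peaks beyond the limit were 3 FOXL2 peaks about 370 kb upstream of Tgfbr2, so the limit itself separated no neighbouring peaks. No peak was assigned to Acvr1c, and none within the limit to Tgfbr2.

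Ligands of the TGF-beta superfamily bring a pair of type II receptors together with a pair of type I receptors, and the type II kinases activate the type I kinases. Activin binds Acvr2a or Acvr2b and then mainly Acvr1b (ALK4), which phosphorylates SMAD2 and SMAD3. TGF-beta uses Tgfbr2 with Tgfbr1 (ALK5) toward the same SMADs, whereas BMP ligands use Bmpr2 or the activin type II receptors with Bmpr1a (ALK3) or Acvr1 (ALK2) toward other SMADs. In pituitary gonadotropes, activin signalling raises transcription of the FSH β subunit gene, and inhibin opposes it by binding the activin type II receptors together with Tgfbr3 (betaglycan).

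LβT2 is an established mouse pituitary line of the gonadotrope type. In every group the cells carried a lentiviral cassette for doxycycline-inducible FLAG-tagged mouse FOXL2, a forkhead transcription factor. Before treatment the cells of every group had 48 h of doxycycline and a 24 h recovery, then 2 h in medium with 2% serum. They then received either vehicle or activin A at 1 nM for 1 h. Antibodies against SMAD2/3, against FLAG (written FOXL2 here) and against H3K27ac (lysine 27 acetylation of histone H3, a mark of active promoters and enhancers) pulled down DNA from 2 samples of each treatment, and a sample pooled 3 plates. FOXL2 therefore means the tagged, induced protein in 1 transduced line, and no group lacked doxycycline. The labels do not say whether the 2 samples of a group came from separate cultures, so p-values measure only the spread between these samples.

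The SMAD2/3 lists held 144 to 605 peaks with vehicle and 5970 to 7784 with activin, the FOXL2 lists 83834 to 97701, and the H3K27ac lists 38995 to 41763. The number of reads behind each list is not in the files, so depth is unknown. As a check of the labelled cell type, H3K27ac lay within 1 kb of the RefSeq start of Cga, Lhb and Gnrhr in all 4 libraries, but not of Fshb. It lay at none of the 5 markers of other pituitary cell types that could be looked up (Prl, Pomc, Tshb, Pou1f1, Tbx19) and at none of the 3 non-pituitary markers (Alb, Cd3e, Ptprc).

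At the level of the whole receptor set, SMAD2/3 peaks appeared with activin, whereas the numbers of FOXL2 and H3K27ac peaks overlapped between treatments. The SMAD2/3 lists held no receptor peak in either vehicle library and 2 in each activin library. On the scale of log2 of the number of receptor peaks plus 1, the vehicle value was 0 ± 0 (SD, n = 2) and the activin value 1.58 ± 0 (SD, n = 2). The groups were fully separated, and the exact two-sided permutation test gave p = 0.333, the smallest p that 2 libraries against 2 can reach. As a share of the list, the activin libraries held 0.0257% and 0.0335% receptor peaks. The upper 95% Wilson bounds for the empty vehicle lists were 0.631% and 2.60%, so a share as large as that with activin was not detectable in lists this short.

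FOXL2 receptor peaks numbered 41 and 47 in the vehicle and 45 and 43 in the activin libraries, and the values interleaved. The log2 difference, activin minus vehicle, was 0.003 with a spread between replicates (pooled SD) of 0.102 and an exact permutation p of 1. As a share of the longer activin lists they were lower, at 0.0459% ± 0.000224 (SD, n = 2) against 0.0518% ± 0.00609 (SD, n = 2), an exact permutation p of 0.333. H3K27ac receptor peaks numbered 19 and 18 in the vehicle and 14 and 20 in the activin libraries, and their log2 difference of -0.14 was smaller than the replicate spread of 0.246 (exact permutation p = 1). The low activin library decided its sign, since without activin replicate 1 the difference was 0.11.

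**Figure D1:**
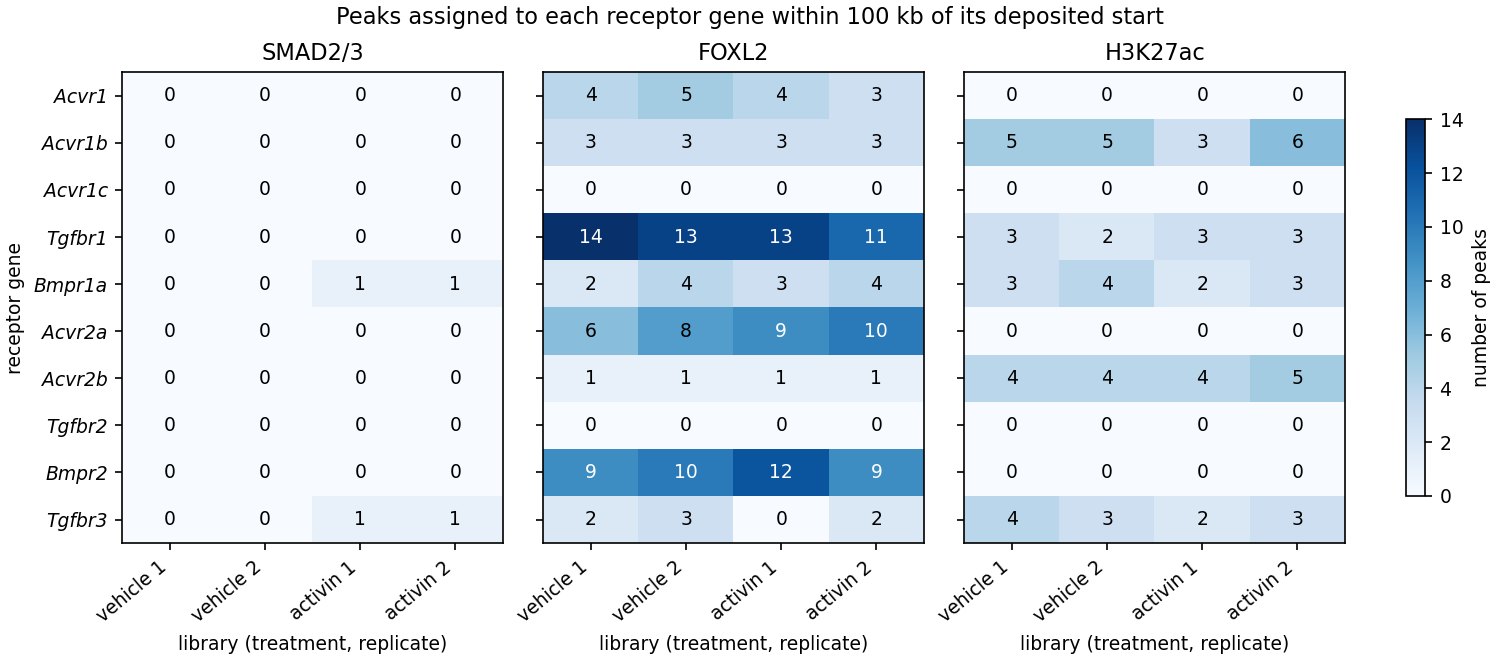
Number of peaks assigned to each receptor gene (rows) in each library (columns: treatment and replicate) for SMAD2/3, FOXL2 and H3K27ac. Darker cells hold more peaks. SMAD2/3 was found at Bmpr1a and Tgfbr3 in the activin libraries alone, Tgfbr1 held 11 to 14 FOXL2 peaks per library, and Acvr1c and Tgfbr2 held none of any kind.

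The peaks were unevenly divided among the genes. After overlapping peaks (by 1 bp or more) of an antibody's 4 lists had been joined into regions, the receptor genes held 2 SMAD2/3, 56 FOXL2 and 18 H3K27ac regions. Tgfbr1 had 16 FOXL2 regions, Bmpr2 13 and Acvr2a 11, while Acvr2b had 1. Counting only regions found in both libraries of a treatment, Tgfbr1 had 12, more than 95.7% of the 28143 genes with any assigned peak, and Bmpr2 had 11, more than 94.7%. H3K27ac followed another order, with 6 regions at Acvr1b, 5 at Acvr2b, 3 at Tgfbr1 and 2 each at Bmpr1a and Tgfbr3.

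**Figure D2:**
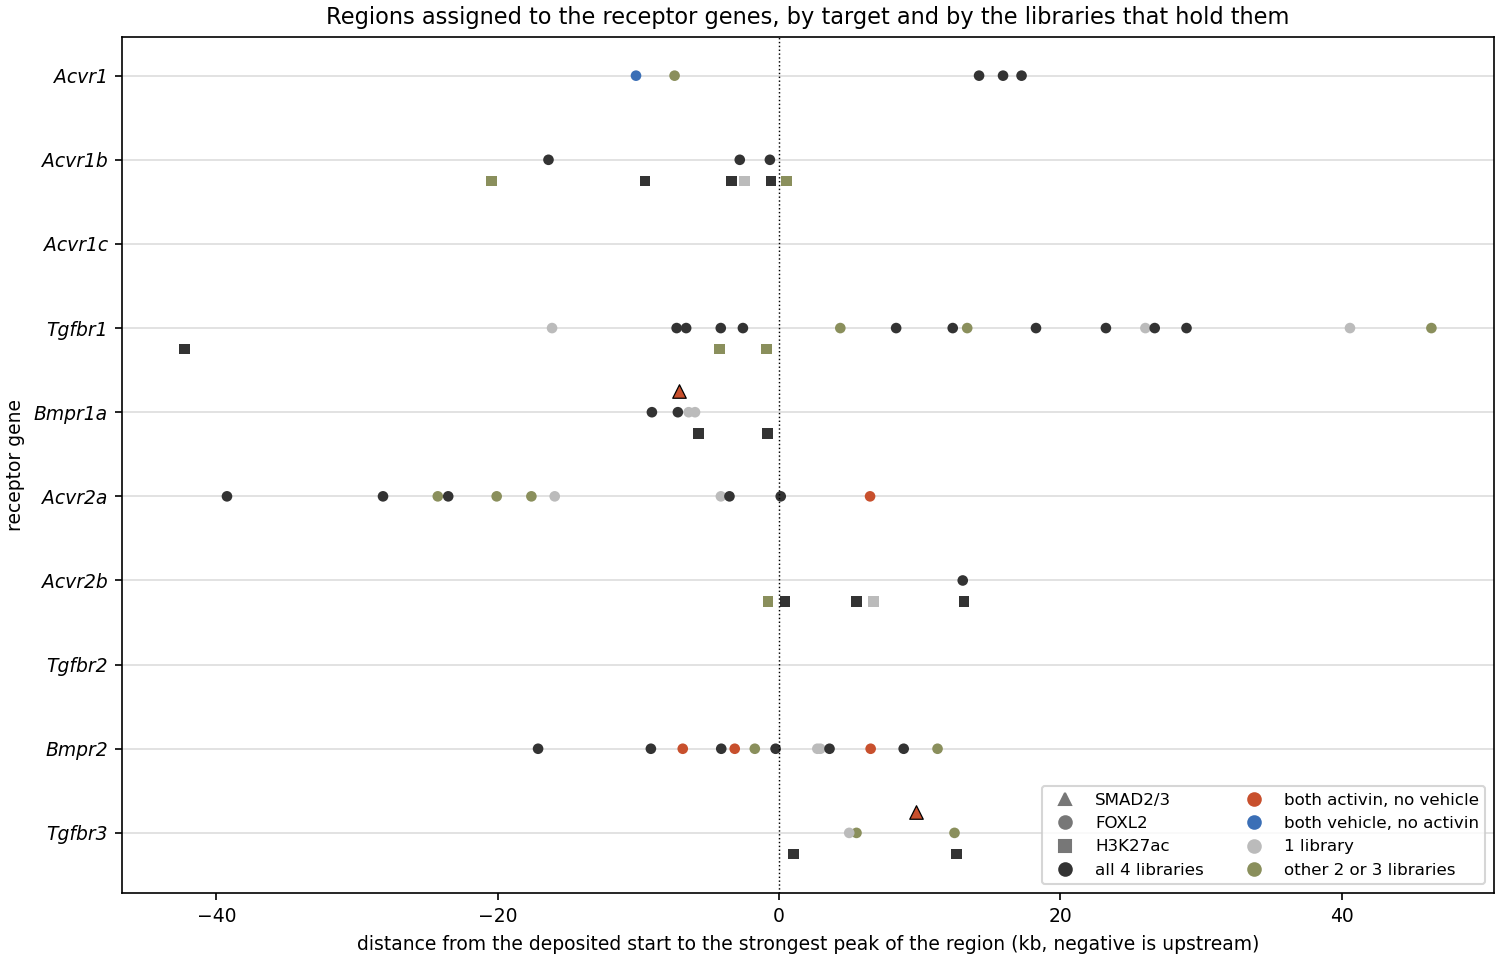
Each mark is a merged region, placed by the distance in kb of its strongest peak from the gene's deposited start (x axis, negative is upstream) in the row of its receptor gene (y axis). Shapes give the target and colours the libraries that hold the region. Both SMAD2/3 regions, at -7.1 kb from the Bmpr1a start and 9.7 kb from the Tgfbr3 start, were found in both activin and no vehicle libraries.

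The annotated start used in the deposited tables was not always the start of the full-length gene. For Acvr1, Acvr2a and Bmpr2 it lay 50.6, 76.3 and 86.4 kb downstream of the start in RefSeq's GRCm38.p6 table, the assembly that matches the builds GRCm38 and mm10 in the submitters' processing notes. For the other 6 genes with a deposited start it lay within 0.4 kb. Distances from the deposited start to a peak at these 3 genes therefore run from an internal start. RefSeq starts and gene spans are given beside the deposited ones wherever this matters.

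SMAD2 and SMAD3 are the transcription factors that the activin receptors activate. Regions held by the 2 activin lists but by no vehicle list are called activin-only, and the reverse vehicle-only. Both receptor regions were activin-only, and so were 54.1% of all SMAD2/3 regions within 100 kb of an annotated start. None was vehicle-only (0.0266% of all) or found in all 4 libraries (1.54% of all). By gene, 2 of the 8 receptors with an assigned peak had a SMAD2/3 region in both activin libraries, beside 11.6% of all genes with an assigned peak. When every list was limited to its 144 strongest peaks, the length of the shortest, no receptor region remained.

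The Bmpr1a region, chr14:34509468-34509798, was classed as intergenic, at -7.1 kb from the start. It had the authors' fold enrichments of 7.45 and 4.33 in activin libraries 1 and 2. By −log10 q it stood at percentile rank 69.9 in the first list and 17.7 in the second, where 100 is the strongest peak of a list. It was thus a strong site in 1 replicate and a weak site in the other. FOXL2 was present there in all 4 libraries (chr14:34509542-34510266), at percentile ranks 35.5 and 54.3 in the vehicle and 58.4 and 59.4 in the activin libraries. The SMAD2/3 and FOXL2 summits were 21 bp apart in activin replicate 1 and 105 bp apart in replicate 2. The site lay inside a broad acetylated region of all 4 libraries, chr14:34505408-34511129, at ranks 84.7 and 92.7 in the vehicle and 92.0 and 92.5 in the activin libraries.

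The Tgfbr3 region, chr5:107279766-107280017, lay in intron 1, 9.7 kb into the gene. Its fold enrichments were 5.89 and 6.27 and its percentile ranks 36.7 and 40.9, below the median peak in both activin libraries. It lay in an acetylated region of all 4 libraries (chr5:107276058-107280464), whose rank was 72.8 and 76.1 in the vehicle and 67.4 and 55.8 in the activin libraries. No FOXL2 region overlapped it: the nearest of both activin libraries was 10535 bp away and the nearest of any library 2527 bp away. Of the 2 sites, 1 overlapped FOXL2 (50%, 95% Wilson interval 9.45 to 90.5) beside 81.3% of SMAD2/3 regions near genes, and both overlapped H3K27ac (34.2 to 100) beside 78.3%. With H3K27ac peaks limited to a −log10 q of at least 5, 1 of the 2 did (50%), since the acetylated region at Tgfbr3 had a −log10 q of 4.69 in activin library 2. These intervals cover counting error only.

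The nearest-start rule left out SMAD2/3 regions that lie inside the receptor genes but nearer to another annotated start. In the RefSeq gene spans, regions of both activin libraries numbered 4 in Tgfbr3 and 2 in Bmpr2, and none lay in the other 8 genes. Those 2 of 10 stand beside 8.03% of all protein-coding genes and 18.6% of those in the length range of the receptors. Over the 919 kb of all 10 spans this was 0.653 regions per 100 kb, beside 0.279 over all protein-coding genes and 0.332 over those of like length. Without Tgfbr3 it was 0.272. Within 100 kb of a RefSeq start, whatever gene was nearest, 6 receptors had such a region: Acvr1, Acvr1c, Bmpr1a, Acvr2b, Bmpr2 and Tgfbr3. The share of all genes with a region by this wider rule was not computed, so the 6 have no comparison. The views by gene span and by RefSeq start were added after the files had been seen.

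A site upstream of Acvr1 ranked far higher than the assigned pair in both activin libraries. This region, chr2:58583747-58584611, at -17.4 kb from the RefSeq start and assigned to the neighbouring gene Upp2, had fold enrichments of 10.5 and 9.63 and percentile ranks of 97.0 and 94.4. FOXL2 there stood at ranks 97.5 and 98.7 in the vehicle and 99.0 and 99.2 in the activin libraries. H3K27ac stood at 72.8 and 70.8 with vehicle and at 98.3 and 94.8 with activin, with no overlap between treatments. In intron 5 of Tgfbr3 a region at chr5:107144268-107144603 stood at SMAD2/3 ranks 66.8 and 82.0, with the FOXL2 summit 1 and 19 bp away. Within Bmpr2, chr1:59804501-59804845 stood at 70.3 and 79.8 on a FOXL2 region of rank 99.0 to 99.8 in all 4 libraries. In activin library 1 these Tgfbr3 and Bmpr2 sites ranked close to the assigned Bmpr1a region (69.9), and in library 2 above both assigned regions.

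**Figure D3:**
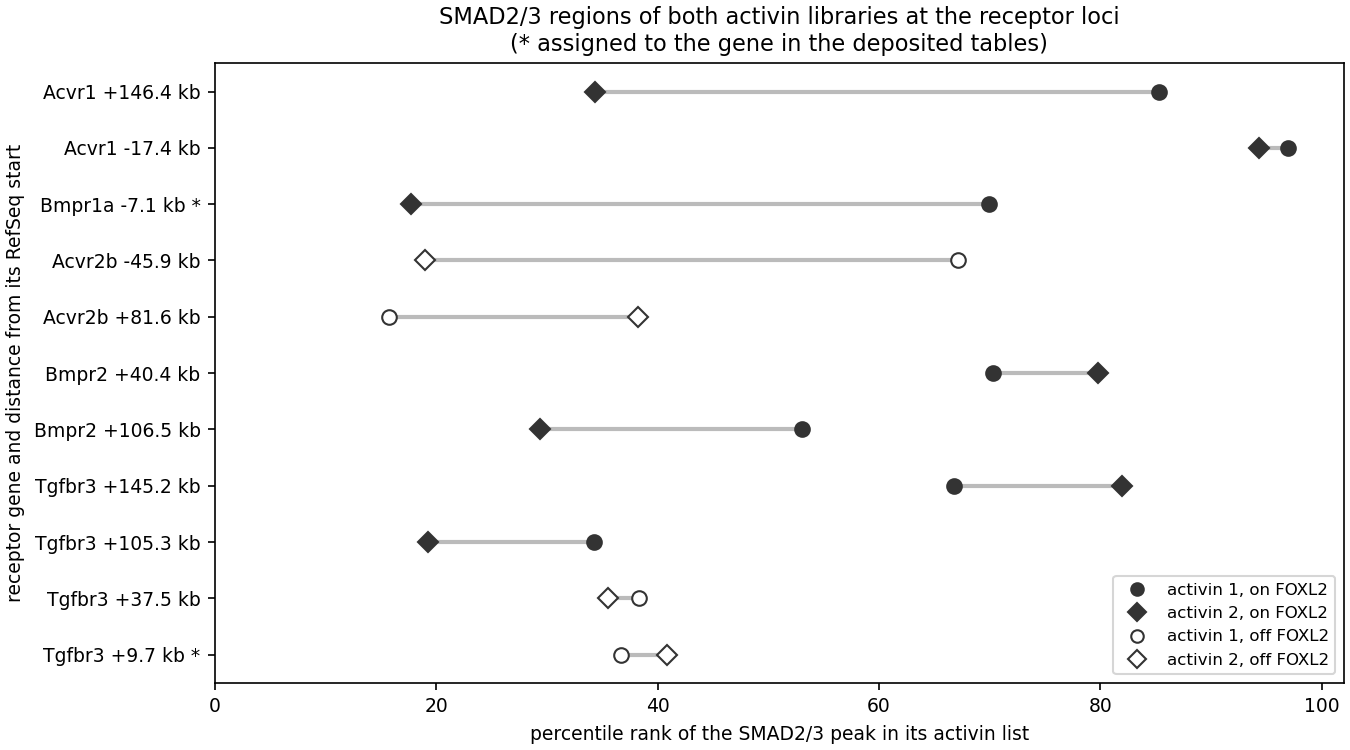
Percentile rank (x axis, 100 is the strongest peak) of each SMAD2/3 region of both activin libraries at the receptor genes, in activin library 1 (circles) and 2 (diamonds). Rows give the gene and the distance in kb from its RefSeq start, filled marks overlap FOXL2, and an asterisk marks the pair assigned by the deposited tables. The site at -17.4 kb from Acvr1 ranked highest, at 97.0 and 94.4.

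Among the type I receptors, Acvr1b, mainly used by activin, was the only receptor with FOXL2 within 1 kb of its RefSeq start in all 4 libraries, a property of 5.2% of protein-coding promoters. This FOXL2 region, chr15:101173227-101173605, ranked 35.5 and 45.4 in the vehicle and 39.3 and 30.8 in the activin libraries, so the treatments overlapped. The acetylated promoter region around it, chr15:101172867-101173847, ranked 86.9 and 79.1 in the vehicle and 95.5 and 94.6 in the activin libraries, and the treatments did not overlap. Its fold enrichments were 5.40 and 4.21 in the vehicle and 6.75 and 6.59 in the activin libraries. At -3.4 kb a smaller acetylated region had the opposite order, with 57.0 and 52.3 against 29.8 and 41.4. Acetylation at -9.5 kb (chr15:101163446-101165723) ranked between 94.6 and 96.3 in every library.

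Acvr1 (ALK2), a type I receptor for BMP ligands, had 5 assigned FOXL2 regions, all in introns by the deposited classes. At chr2:58498672-58499387, FOXL2 ranked 72.0 and 80.4 in the vehicle and 89.6 and 89.9 in the activin libraries, with fold enrichments of 10.5 and 11.6 against 18.0 and 17.1. Both activin libraries were above both vehicle libraries. A weak region at -10.2 kb from the deposited start, chr2:58526318-58526558, was the only vehicle-only FOXL2 region of the receptor genes, at ranks 21.6 and 38.1.

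Bmpr1a (ALK3), another BMP type I receptor, had 2 assigned FOXL2 regions in all 4 libraries, and both ranked higher in both activin libraries. Besides the region at the SMAD2/3 site, chr14:34511222-34511912, at -9.0 kb, ranked 68.2 and 32.4 in the vehicle and 87.1 and 81.5 in the activin libraries. Its fold enrichments were 9.06 and 4.45 against 18.2 and 14.1. The vehicle replicates of this site were far apart, yet both were below both activin values. None of the FOXL2 regions in the body of Bmpr1a was assigned to it by the nearest-start rule, although its RefSeq span held 14 regions of all 4 libraries. Of these 14, 4 ranked higher and 6 lower in both activin libraries, so the order of the assigned pair did not hold across the gene.

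Tgfbr1 (ALK5), the TGF-beta type I receptor, had the most assigned FOXL2 regions, 10 of them in all 4 libraries. By RefSeq span, Bmpr1a (14) and Bmpr2 (13) held more regions of all 4 libraries than Tgfbr1 (11). Of these 10 assigned regions, 4 ranked lower in both activin libraries and none ranked higher in both, beside 28.2% and 29.7% of FOXL2 regions near genes. Their median rank difference, activin minus vehicle, was -10.4. The largest difference, -24.5, was at chr4:47382370-47382842 in intron 1, with 52.4 and 76.2 in the vehicle and 38.9 and 40.8 in the activin libraries. At chr4:47376678-47377017, also in intron 1, FOXL2 ranked 68.7 and 71.7 against 54.6 and 63.9. Of 11 FOXL2 regions of all 4 libraries in the RefSeq span of Tgfbr1, 2 ranked higher and 5 lower in both activin libraries. The nearest-start rule assigned 6 of the 11 to the gene. The gene held no H3K27ac region of all 4 libraries in its RefSeq span. Its promoter had a weak H3K27ac peak in 1 library of each treatment, at rank 24.8 in vehicle library 2 and 46.3 in activin library 1.

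Acvr1c (ALK7), a type I receptor for activin B and Nodal, had no assigned peak. Its 90.4 kb RefSeq span held no FOXL2 and no H3K27ac region of all 4 libraries. The nearest SMAD2/3 region of both activin libraries, chr2:58420254-58420536, lay at -62.6 kb from its RefSeq start and was classed in an Acvr1 intron, at ranks 85.3 and 34.3.

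Among the type II receptors, Acvr2b, a high-affinity activin receptor, showed the widest separation of acetylation ranks among the receptors. All 3 of its H3K27ac regions found in every library ranked higher in both activin libraries. The region just inside the start, chr9:119402360-119403475, ranked 38.0 and 27.4 in the vehicle and 70.9 and 80.2 in the activin libraries, with fold enrichments of 3.84 and 3.31 against 5.56 and 6.60. The region in intron 1 at +13.2 kb, chr9:119415055-119416315, ranked 18.1 and 7.07 against 76.2 and 69.2. The region at +5.5 kb ranked 28.1 and 5.76 against 47.8 and 45.5. In each of the 3, the lowest activin value was above the highest vehicle value. Their vehicle peaks were weak, with a −log10 q of 1.48 to 3.44 beside list minima of 1.00 and 1.01. A region at -0.8 kb ranked 1.70 and 13.7 in the vehicle libraries and 20.4 in activin library 2, and was missing from activin library 1. A region at +6.7 kb was found in activin library 1 alone, at rank 5.59.

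The RefSeq span of Acvr2b held 2 FOXL2 regions of all 4 libraries. The only FOXL2 region assigned to the gene, chr9:119415395-119415892, lay inside the acetylated region at +13.2 kb. It ranked 23.2 and 66.7 in the vehicle and 71.4 and 72.1 in the activin libraries. The vehicle libraries lay far apart, and the higher of them was close to the activin values. No SMAD2/3 region of both activin libraries lay in the RefSeq span of Acvr2b, and the nearest ones were at -45.9 kb and 81.6 kb from its start.

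Acvr2a, the other activin type II receptor, had 11 assigned FOXL2 regions, 10 of them in introns. At -28.1 kb from the deposited start, in intron 1, FOXL2 ranked 51.5 and 28.5 in the vehicle and 68.0 and 63.6 in the activin libraries. At -23.5 kb it ranked 25.7 and 51.4 against 54.1 and 52.1. The strongest region, chr2:48850699-48851668, was lower in both activin libraries by a small margin, at 93.2 and 89.6 against 89.5 and 89.5. A region at chr2:48896683-48897040 was activin-only, at ranks 51.4 and 37.6.

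Bmpr2, the BMP type II receptor, had 6 assigned FOXL2 regions in all 4 libraries and 3 of the 4 activin-only FOXL2 regions of the set. The strongest FOXL2 region assigned to a receptor by the nearest-start rule, chr1:59850151-59850688, ranked 96.6 and 97.5 in the vehicle and 97.2 and 97.6 in the activin libraries, which overlap. It lies at the deposited start, 86.4 kb inside the gene by RefSeq. The activin-only regions were weak, at ranks of 0.396 to 34.7. No H3K27ac peak was assigned to Bmpr2, but its RefSeq promoter was acetylated in every library.

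Tgfbr2, the TGF-beta type II receptor, had neither a FOXL2 nor an H3K27ac region of all 4 libraries in its RefSeq span of 87.7 kb. The 3 FOXL2 peaks assigned to it at about 370 kb stood at ranks 36.8, 51.2 and 57.2 and were missing from vehicle library 2.

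The co-receptor Tgfbr3 had 3 weak assigned FOXL2 regions, none in all 4 libraries. Its RefSeq span held 10 FOXL2 and 8 H3K27ac regions of all 4 libraries, of which 0 and 2 were assigned to it. The acetylated region next to its start, chr5:107287482-107289552, ranked 66.0 and 65.3 in the vehicle and 73.9 and 76.8 in the activin libraries. The region that holds its SMAD2/3 site had the reverse order, as given above.

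Promoter acetylation was read at the RefSeq start, where 7 of the 10 promoters carried H3K27ac within 1 kb in all 4 libraries, beside 42.9% of protein-coding promoters. They were Acvr1, Acvr1b, Bmpr1a, Acvr2a, Acvr2b, Bmpr2 and Tgfbr3. Tgfbr1 had it in 2 libraries, and Acvr1c and Tgfbr2 had it in none, like 51.2% of promoters. By the deposited start the count was 4 of the 8 receptors with an assigned peak, beside 26.2% of all genes with one. Both receptors that bind activin directly and the type I receptor Acvr1b were among the 7.

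Of the 7, 6 ranked higher in both activin libraries, an order found at 21.5% of promoters acetylated in all 4 libraries. Acvr2a had the opposite order, found at 25.4%, with 74.9 and 75.8 against 65.1 and 70.2. The size of the shift varied from Acvr2b to Acvr1, whose promoter was already at ranks 98.4 and 98.3 with vehicle and stood at 99.1 and 98.7 with activin. At Bmpr2 the ranks were 84.1 and 78.3 in the vehicle and 87.2 and 86.7 in the activin libraries. At Bmpr1a they were 81.4 and 78.0 against 83.0 and 91.8. A rank is a place in a library's own list and is not a measure of the amount of acetylation.

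**Figure D4:**
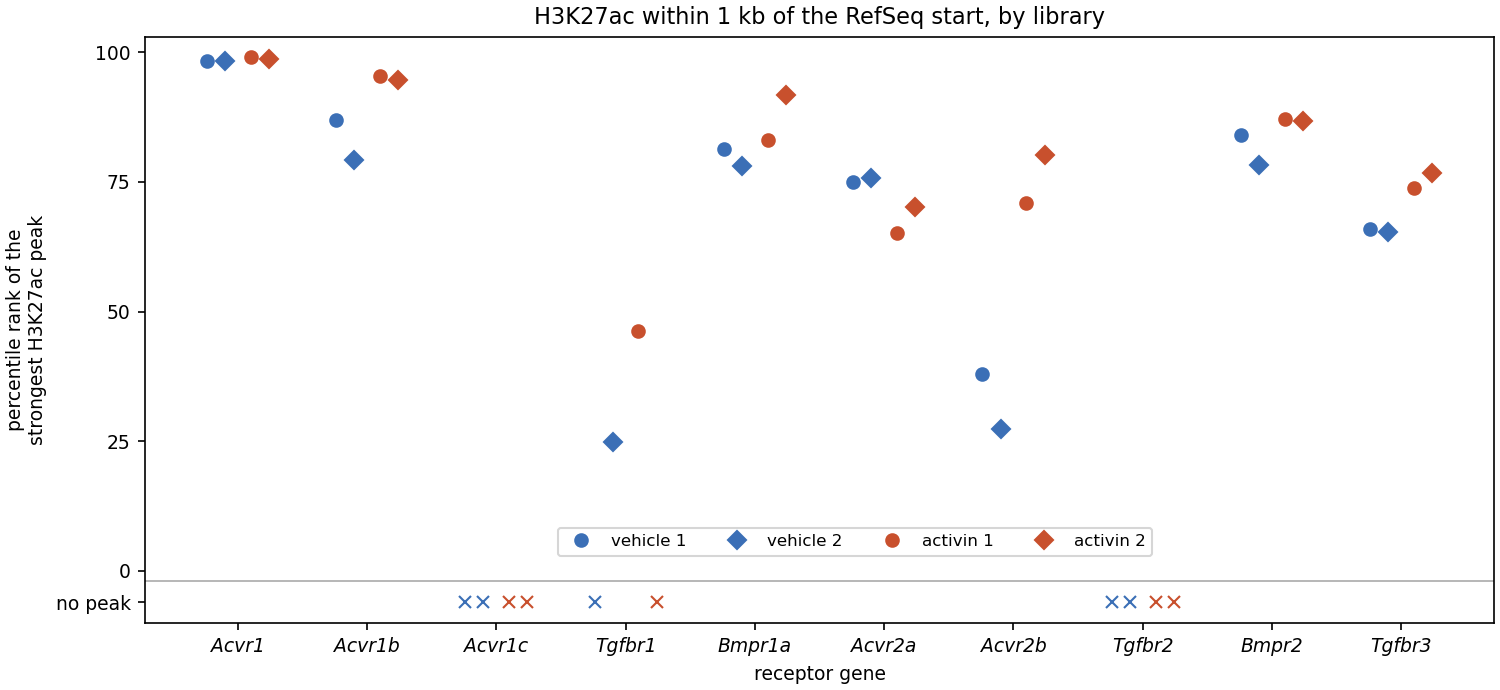
Percentile rank of the strongest H3K27ac peak within 1 kb of the RefSeq start of each receptor gene (x axis), with 1 mark per library (blue vehicle, red activin) and crosses where a library has no peak. Acvr2b ran from 27.4 and 38.0 with vehicle to 70.9 and 80.2 with activin, Acvr2a had the reverse order, and Acvr1c and Tgfbr2 had no peak.

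The 250 bases before the RefSeq start, available for 9 of the 10 genes (not Tgfbr3), show the DNA between these peaks. They are printed for the gene whose upstream bases were covered by H3K27ac (Bmpr2), for a gene where only the activin peaks reached in (Acvr1b), for a gene flanked by peaks that stopped short of it (Acvr2a) and for the 2 genes without a promoter peak (Acvr1c, Tgfbr2). The sequences are from RefSeq, GRCm38.p6, 5′ to 3′ in the direction of the gene, with capitals for the SMAD core CAGAC or its reverse complement. They come from chr15:101173822-101174071 (+), chr2:58357759-58358008 (-), chr2:48813859-48814108 (+), chr9:116175364-116175613 (-) and chr1:59764029-59764278 (+), in the order printed.
Acvr1b: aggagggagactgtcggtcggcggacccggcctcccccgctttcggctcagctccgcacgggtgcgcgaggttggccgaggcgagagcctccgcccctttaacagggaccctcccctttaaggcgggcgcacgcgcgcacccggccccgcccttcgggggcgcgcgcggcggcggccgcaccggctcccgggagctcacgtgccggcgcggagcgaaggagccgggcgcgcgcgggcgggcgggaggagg
Acvr1c: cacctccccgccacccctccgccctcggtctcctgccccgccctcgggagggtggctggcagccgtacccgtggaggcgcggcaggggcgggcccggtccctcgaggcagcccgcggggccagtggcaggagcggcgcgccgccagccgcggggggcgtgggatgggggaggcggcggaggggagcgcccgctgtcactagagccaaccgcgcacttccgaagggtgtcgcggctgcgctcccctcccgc
Acvr2a: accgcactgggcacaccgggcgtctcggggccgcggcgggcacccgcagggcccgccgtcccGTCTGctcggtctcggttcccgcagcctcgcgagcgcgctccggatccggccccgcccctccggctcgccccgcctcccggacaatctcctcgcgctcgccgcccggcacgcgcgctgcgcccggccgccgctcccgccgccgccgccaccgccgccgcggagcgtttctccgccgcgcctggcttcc
Tgfbr2: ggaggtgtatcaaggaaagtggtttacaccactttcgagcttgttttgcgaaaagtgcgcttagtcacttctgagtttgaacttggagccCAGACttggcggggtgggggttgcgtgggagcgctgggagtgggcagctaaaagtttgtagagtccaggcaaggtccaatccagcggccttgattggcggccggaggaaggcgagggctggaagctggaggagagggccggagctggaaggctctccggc
Bmpr2: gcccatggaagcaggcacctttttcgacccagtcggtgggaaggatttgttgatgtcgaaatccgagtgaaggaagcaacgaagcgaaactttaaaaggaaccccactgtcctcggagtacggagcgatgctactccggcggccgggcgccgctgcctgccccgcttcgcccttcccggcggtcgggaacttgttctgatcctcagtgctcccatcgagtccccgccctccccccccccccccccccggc

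H3K27ac peaks covered 250 of the 250 bases of Bmpr2 in every library. At Acvr1b, 0 bases were covered with vehicle and 16 and 26 with activin. In the other 7 genes no base was covered, except 11 at Acvr1 in activin library 2. At the other acetylated promoters among the 9 genes the peaks thus did not reach across these bases. Peaks lay on both sides of them in every library at Acvr1, Bmpr1a and Acvr2a. At Acvr1b and Acvr2b some libraries had a peak on 1 side only.

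The base content was high in G and C for all 9, from 58.4% at Tgfbr2 to 85.6% at Acvr1, beside a median of 52.4% over the 32851 promoters of the table. CpG dinucleotides were more common than the base content predicts at Acvr2a (observed to expected 1.23), Acvr1 (1.11) and Acvr1b (1.09). In the remaining genes the ratio was below 1, also at the acetylated Bmpr1a (0.928), Bmpr2 (0.879) and Acvr2b (0.735). It was lowest at Tgfbr2 (0.638), and all 9 were above the median of 0.373 over the promoters of the table. Acvr1c, which had no H3K27ac peak, was as rich in G and C (79.6%) as the acetylated Acvr1b (78.8%). Tgfbr2, the other gene without a promoter peak, was below every acetylated promoter among the 9 genes, of which Bmpr2 had the lowest value (64.0%). The acetylated Tgfbr3 promoter is not among the 9.

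Each of Acvr2a, Acvr2b and Tgfbr2 held 1 match to CAGAC on either strand, a sequence present in 42.2% of all promoter windows of this length. The forkhead core TAAACA (12% of windows) and the AP-1 motif TGANTCA (6.75%), searched on both strands, had no match in the 9 genes. No match overlapped another. A match describes the letters and is not a binding site.

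Across the set, 30 FOXL2 receptor regions were found in all 4 libraries, of which 7 (23.3%) ranked higher in both activin libraries, beside 29.7% of FOXL2 regions near genes. Another 6 ranked lower in both, beside 28.2%, and 17 overlapped. The 7 lay at Acvr1, Bmpr1a, Acvr2a, Acvr2b and Bmpr2, and 4 of the 6 at Tgfbr1. The median rank difference was 0.391. Without vehicle replicate 1 or without vehicle replicate 2, when 3 libraries decide the order, 40% ranked higher. Without activin replicate 1 30% did, and without activin replicate 2 36.7% did. The share over all FOXL2 regions with 3 libraries was not computed, so these values cannot be set against the 29.7%.

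In presence and absence, 4 of the 56 FOXL2 regions were activin-only, beside 8.72% of FOXL2 regions near genes, and 1 was vehicle-only, beside 3.25%. The vehicle-only count was 2 to 6 when a library was left out. Of the 37 regions of both activin libraries, 5 overlapped H3K27ac (13.5%, 95% Wilson interval 5.91 to 28.0), and the share over all FOXL2 regions near genes, 19.4%, lies in this interval. In the RefSeq spans, FOXL2 regions of all 4 libraries were spaced at 6.75 per 100 kb, beside 4.37 in genes of like length. Of these 62 regions, 18 ranked higher and 21 lower in both activin libraries, beside 29.7% and 28.2% of FOXL2 regions near genes. Tgfbr1 (17.8), Bmpr1a (15.2) and Bmpr2 (11.4) were densest, and Acvr1c and Tgfbr2 had none.

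Over the 11 H3K27ac receptor regions of all 4 libraries, 6 (54.5%) ranked higher in both activin libraries, beside 26.5% of H3K27ac regions near genes. The 6 were 3 regions of Acvr2b and 1 each of Acvr1b, Bmpr1a and Tgfbr3. Another 2 ranked lower in both, at Acvr1b and Tgfbr3, beside 30.5%. The median difference was 7.73 rank points over the 11, and -0.605 over all such regions. Because 3 of the 6 lie in Acvr2b, these are not 6 separate loci. No receptor region was activin-only or vehicle-only for H3K27ac, beside 5.82% and 6.31% of regions near genes. With a library left out, 0 to 1 were activin-only (1 without vehicle replicate 1 or activin replicate 2) and 0 to 2 vehicle-only (1 without vehicle replicate 2, 2 without activin replicate 2).

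**Figure D5:**
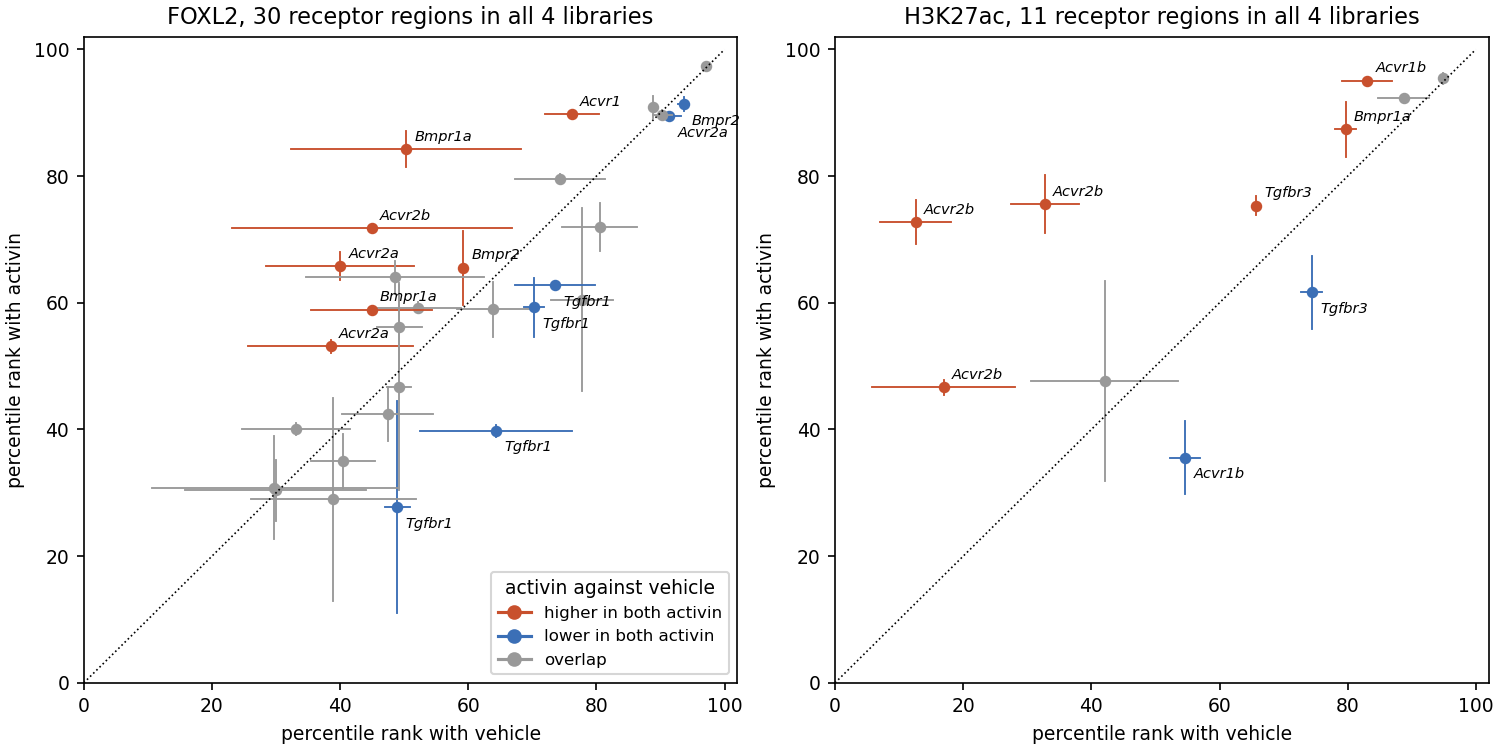
Mean percentile rank with vehicle (x axis) against activin (y axis) of each receptor region of all 4 libraries, for FOXL2 (left) and H3K27ac (right). Bars span the 2 libraries of a treatment, and colours mark regions higher (red) or lower (blue) in both activin libraries. In H3K27ac the 3 Acvr2b regions lie farthest above the dotted line of equal rank, and in FOXL2 4 Tgfbr1 regions are marked as lower in both activin libraries.

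Other genes of the pathway were counted by the same rule, under which 2 of the 8 receptor genes with a peak had an activin-only SMAD2/3 region. Among 10 other receptors and co-receptors, 6 had a peak and 2 an activin-only SMAD2/3 region, Bmpr1b (a BMP type I receptor) and Amhr2 (the anti-Müllerian hormone receptor). Among 16 ligands and ligand traps, 12 had a peak and 1, Inhbb, which encodes the activin and inhibin βB subunit, had activin-only regions. Among 16 SMADs and regulators, 14 had a peak and 4 an activin-only region: Smad2, Smad3, Zfyve9 (a SMAD anchor) and Ldlrad4 (an inhibitor of SMAD activation). Over all genes with a peak the share with such a region was 10.7%. No gene of these lists had a vehicle-only SMAD2/3 region. The best sites of Inhbb, at ranks 98.6 and 98.6, and Ldlrad4, at 99.4 and 99.0, stood above every region assigned to a receptor gene.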

How the data were processed

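ChIP-seq peak lists of 12 LβT2 libraries were analysed, 2 per treatment for each of 3 antibodies. A Protein-A control is described in the labels and was not analysed here, so the values have no control measured in the same manner. Bowtie2, MACS2, HOMER and the builds GRCm38 and mm10 are named in the submitters' processing notes. Their versions and settings, and the use of the control, are not given in the sources used here. The deposited lists were made per library, as the peak names in them show, and hold for each peak the authors' fold enrichment (a ratio whose background is not stated) and the authors' −log10 p and −log10 q. They also hold a deposited score that was, in 99.9% of peaks, the whole part of 10 times the −log10 q. Per the file headers, annotatePeaks of HOMER wrote the annotation tables, which give the gene and the distance to its start.

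The receptor genes, the pathway lists and the cell type markers were chosen with earlier results of these data known. All 10 receptors are named, and other pathway genes are named where they have an activin-only SMAD2/3 region. From the files, peaks were merged into regions (1 bp), sorted by the libraries that hold them, and ranked by −log10 q within their own list. The rank of a region is that of its strongest peak. Co-occupancy used regions of both activin libraries. An exact permutation test (two-sided, 6 labellings of 4 libraries) compared the numbers per library (pseudocount 1 on the log2 scale), and no test was run over regions. Intervals are 95% Wilson intervals. RefSeq starts, spans and promoter sequences came from the GRCm38.p6 tables. Of the marker lists, 4 of 7 gonadotrope, 5 of 6 other pituitary and 3 of 5 non-pituitary genes were in the promoter table. A motif search in the SMAD2/3 peaks was not run, since no genome sequence was used here. The merging and labelling steps were tested on simulated data. Python 3.11.15, pandas 2.3.3, numpy 2.4.6, scipy 1.17.1 and matplotlib 3.10.9 were used. Alternatives varied the distance limit, the q threshold, the overlap, the list length, the ranking, the pseudocount, the start used and the libraries included.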

Additional observations from a re-analysis of the deposited data

How the results depend on the processing

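Over 18 results and 130 alternatives, 110 values were labelled unchanged, 13 counts moved and 7 differences changed sign. Unchanged meant the same sign for a difference, within 1.5 times for a count and inside the main value's Wilson interval for a share. The 110 include the H3K27ac overlap of SMAD2/3 receptor regions, 100% (interval 34.2 to 100) and 50% at a −log10 q of at least 5. They also include the share of FOXL2 regions ranked higher in both activin libraries. It was 23.3% (11.8 to 40.9), and 40% without vehicle replicate 1 or without vehicle replicate 2. All 7 reversals were of FOXL2 or H3K27ac differences whose main values were smaller than the spread between replicates. With a −log10 q of at least 5 the log2 differences were -0.0536 for FOXL2 and 0.26 for H3K27ac, and the H3K27ac difference in percent of the list was 0.0119, with full separation of the treatments (exact permutation p = 0.333). The main replicate spreads were 0.246 and 0.00892, but they belong to the full lists. The spread at this threshold was not computed, so neither H3K27ac value can be set against it. For the log2 value the treatments were not fully separated. Leaving out 1 library at a time, these differences ran from -0.0935 to 0.0992 for FOXL2 (below 0 without vehicle replicate 1 and without activin replicate 1), from -0.38 to 0.11 for H3K27ac and from -0.0118 to 0.00592 for the H3K27ac percent (both above 0 without activin replicate 1). With lists limited to the length of the shortest, SMAD2/3 activin-only regions numbered 0 and FOXL2 vehicle-only regions 2. Leave-one-out counts were 2 to 6 for FOXL2 vehicle-only, 0 to 1 for H3K27ac activin-only and 0 to 2 for H3K27ac vehicle-only regions. Fewer libraries decide each of these calls. With H3K27ac at a −log10 q of at least 5, 50% of the SMAD2/3 receptor regions overlapped it (1 of 2). Receptor genes with a SMAD2/3 region of both activin libraries numbered 5 when any region within 100 kb of the deposited start counted, and 6 from the RefSeq start. The share of all genes was not computed for either count. Promoters acetylated in all 4 libraries numbered 7 by the RefSeq start. The RefSeq alternatives were added after seeing the data. Replicate numbers were not used as pairs in the main tests. Replicate differences of the 2 treatments correlated at 0.132 for FOXL2 and -0.0281 for H3K27ac across regions, and were not compared for SMAD2/3. These values do not settle whether equal replicate numbers form pairs. The replicate block left the differences as they were (SMAD2/3 1.58, exact sign-flip permutation p = 0.5) and changed no call. Unknown read depth limits every statement on an absent peak, most of all in the short vehicle SMAD2/3 lists.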
